A study of Rattus norvegicus with 22 samples.

Results

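Growth hormone and STAT5 signalling is described here through 8 genes of rat liver: Ghr, Jak2, Stat5a, Stat5b, Socs2, Cish, Igf1 and Igfals. They were chosen by name as the core of the pathway and taken as the rows with those symbols, 8 of 14971 genes in the deposited table. All 8 were among the 12424 genes tested. Livers came from rats that had hepatic vagotomy (cutting of the nerve branch to the liver) or sham surgery at 12 weeks of age, recovered for 5 to 6 days, breathed ozone at 1 ppm or air for 4 hours on 1 or 2 days, and were killed within 2 hours of exposure. The groups were vagotomised ozone (n = 5), vagotomised air (n = 6), sham ozone (n = 6) and sham air (n = 5), 22 rats with 1 library each. Every rat, controls included, had surgery. The labels give neither strain nor sex, nor which rats were exposed on 1 or on 2 days. The design asks what ozone does to the liver and whether that differs without the hepatic vagus.

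Growth hormone binds its receptor on hepatocytes and activates the receptor-bound kinase JAK2, which phosphorylates the transcription factors STAT5A and STAT5B. Active STAT5 enters the nucleus and induces genes that include Igf1 and Igfals, whose secreted products act in the circulation, and Socs2 and Cish, whose products damp the receptor's own signal. The pituitary releases growth hormone in pulses, and Socs2 and Cish are known as genes that follow such a pulse quickly.

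STAT5 binds the palindrome TTCNNNGAA, which reads alike on both strands. Cish is the textbook case of a promoter with several such elements, so its sequence is shown with each match in capitals. It is taken from RefSeq, build GRCr8, chr8:116850719-116850968, plus strand, the 250 bases before the annotated start.

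Cish promoter: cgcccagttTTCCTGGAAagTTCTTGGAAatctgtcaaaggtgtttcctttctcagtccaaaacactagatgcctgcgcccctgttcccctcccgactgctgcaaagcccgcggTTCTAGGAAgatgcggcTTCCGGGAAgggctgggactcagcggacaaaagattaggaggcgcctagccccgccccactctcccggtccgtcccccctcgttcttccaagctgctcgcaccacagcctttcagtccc

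The 4 matches lie in 2 pairs: TTCCTGGAA begins 241 and TTCTTGGAA 230 bases before the start, TTCTAGGAA 136 and TTCCGGGAA 119 bases before it. Promoters of 7 of the 8 genes were matched, all except Socs2, and Cish alone among these 7 holds the palindrome in the window from 250 bases before to 50 bases after the start. Of 33469 rat promoters of that length, 2970 (8.87%) hold it at least 1 time, 8 (0.0239%) at least 3 times, and 2 (0.00598%) 4 times, the most in any promoter. A match is a string of letters, and binding was not measured.

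Values are the authors' normalised read counts, in which the reads of a gene were divided by 1 size factor per library. Reads per library numbered 16259568 to 17582912 in vagotomised ozone, 14098863 to 21141337 in vagotomised air, 14737832 to 19469381 in sham ozone and 16408931 to 18721031 in sham air rats. Hepatocyte markers (6 of 6 in the table, albumin among them) summed to 2103836 to 2887471 normalised counts in vagotomised ozone, 2193570 to 3042482 in vagotomised air, 2055246 to 2890724 in sham ozone and 2301748 to 2580164 in sham air libraries, and none of them was at 0. T or B lymphocyte markers (3 of 6 in the table) summed to 7.63 to 21.5, 19.1 to 35.1, 3.54 to 28.7 and 14.4 to 33.0 in the same order, and neutrophil markers (4 of 4) to 19.1 to 88.6, 34 to 79.1, 20.7 to 42.5 and 42.5 to 72.9. In 4 libraries (vagotomised ozone 1, vagotomised air 1 and 5, sham ozone 3) the 5.8S ribosomal RNA gene was at 38.1 to 180 normalised counts, against 342 to 3775 in the other 18, and for calls named here that are lost or gained without them, that value is given.

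In the liver of ozone-exposed rats the transcripts of the feedback inhibitors Cish and Socs2 and of Stat5b were lower than in air, after either surgery. The sham calls of Cish and Socs2 are less secure, being lost in 14 and 5 of 37 settings, and their sham groups overlap. All limma errors of these genes rest on a spread shared over the groups, which understates that of the air libraries. Stat5a fell in sham rats, and Igfals, the plasma partner of IGF-I, fell in vagotomised rats. Ghr, Jak2 and Igf1 passed the test in neither surgery group. In limma's test over all genes with Benjamini-Hochberg adjustment, 4 of the 8 genes fell and 0 rose with ozone in vagotomised rats (21.1% of the 12424 genes were called there, 11.4% as risen and 9.63% as fallen), and again 4 fell and 0 rose in sham rats (28.4% called, 14.6% as risen and 13.8% as fallen). The median log2 change of the 8 genes was -0.51 in vagotomised rats, against -0.01 over all genes, and -0.36 in sham rats, against 0.01. Averaged over both surgeries, 5 of 8 fell and 0 rose (39.1% called, 20.2% as risen and 18.9% as fallen), with a median of -0.51 against 0.00. Scaling the libraries to equal column totals moved the median of all genes in sham rats by -0.103, and the share of called genes that rose was then 33.9% in place of 51.3%, so the background of fallen genes is larger under that scaling (upper quartiles: 35.5% in sham and 42.3% in place of 54.3% in vagotomised rats). Ozone and air libraries did not overlap for 3 of the 8 genes in vagotomised rats (Stat5b, Socs2 and Cish, each lower in ozone; 11.7% of all genes were without overlap, 5.21% with ozone lower) and for 1 in sham rats (Stat5a, lower in ozone; 15.4% of all genes, 7.21% with ozone lower). Since the liver was sampled whole, fewer cells of a type and less RNA per cell cannot be told apart.

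**Figure D1:**
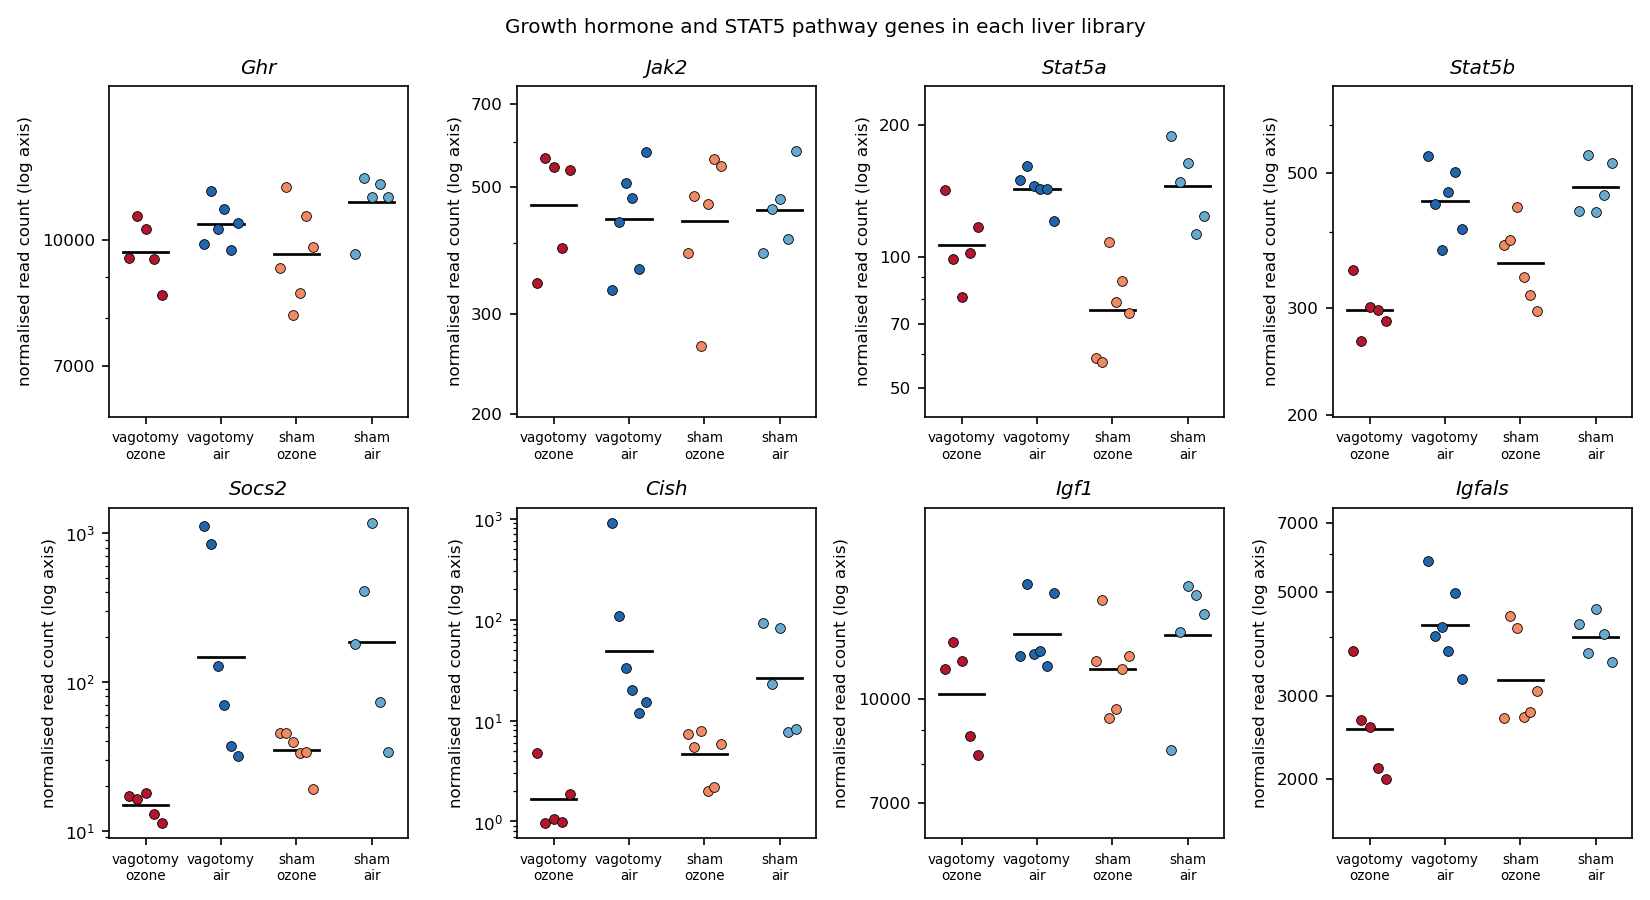
Normalised counts of the 8 genes in each of the 22 libraries, on log axes, by group, with vagotomised ozone, vagotomised air, sham ozone and sham air from left to right; the line is the group mean of log2(count + 1), back-transformed. Cish spans 12.0 to 916 and Socs2 31.8 to 1123 within the vagotomised air libraries, while Ghr stays between 8068 and 11894 over all 22.

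The growth hormone receptor gene Ghr averaged 9703 ± 828 normalised counts in vagotomised ozone rats (SD, n = 5) and 10473 ± 668 in vagotomised air rats (SD, n = 6). It averaged 9676 ± 1332 in sham ozone rats (SD, n = 6) and 11154 ± 906 in sham air rats (SD, n = 5). The groups overlap after both surgeries. The log2 change with ozone was -0.11 ± 0.09 (SE, limma adjusted p = 0.448, 95% interval -0.31 to 0.08) in vagotomised rats and -0.21 ± 0.09 (adjusted p = 0.0957, interval -0.41 to -0.02) in sham rats. The sham value depended on the scaling of libraries: it was -0.32 (adjusted p = 0.00744) with equal column totals and -0.30 (adjusted p = 0.0104) with equal upper quartiles. It also passed without sham ozone library 2 (-0.27, adjusted p = 0.0319) or sham air library 1 (-0.27, adjusted p = 0.0435).

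Jak2, the kinase bound to the receptor, averaged 475 ± 101 normalised counts in vagotomised ozone, 448 ± 92.6 in vagotomised air, 451 ± 111 in sham ozone and 461 ± 76.3 in sham air rats (SD, n = 5, 6, 6 and 5). Its groups overlap almost entirely. The log2 change with ozone was 0.08 ± 0.18 (SE, limma adjusted p = 0.81) in vagotomised rats and -0.06 ± 0.18 (adjusted p = 0.841) in sham rats. The 95% intervals of -0.30 to 0.46 and -0.44 to 0.32 bound a change of either sign.

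Stat5a and Stat5b encode the transcription factors that JAK2 activates. They are close paralogues with near-identical stretches, and how reads shared by both were assigned is not given in the sources used here, so the split between them is uncertain. Stat5a was at 142, 98.9, 80.7, 102 and 117 normalised counts in the 5 vagotomised ozone livers, against a lowest of 121, a median of 144 and a highest of 161 in vagotomised air livers. Sham ozone livers had a lowest of 57.4, a median of 76.6 and a highest of 108, against 189, 148, 164, 113 and 124 in the 5 sham air livers. Each sham ozone value lies below each sham air value, while after vagotomy ozone library 1 reaches into the air range. Stat5a fell by 0.93 ± 0.17 on the log2 scale in sham rats (SE, limma adjusted p = 0.000205). In vagotomised rats the log2 change was -0.43 ± 0.17 (adjusted p = 0.0705). That value passed at -0.53 without vagotomised ozone library 1 (adjusted p = 0.0256), at -0.52 without the 4 libraries low in 5.8S (adjusted p = 0.035), without sham ozone library 3 (adjusted p = 0.0466), with only the groups compared (adjusted p = 0.0467) and with equal upper quartiles (-0.49, adjusted p = 0.047).

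Stat5b, the form that carries most of the growth hormone response in rodent liver, was at 346, 265, 301, 298 and 285 normalised counts in vagotomised ozone livers, against a lowest of 374, a median of 455 and a highest of 533 in vagotomised air livers. Sham ozone livers ranged over a lowest of 297, a median of 359 and a highest of 439, against 433, 534, 431, 459 and 519 in sham air livers. The vagotomised groups do not overlap, and in sham rats the highest ozone library lies above the 2 lowest air libraries. Stat5b fell by 0.60 ± 0.11 on the log2 scale in vagotomised rats (SE, limma adjusted p = 0.000532) and fell by 0.41 ± 0.11 in sham rats (adjusted p = 0.00817). Both calls held in each alternative run.

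Cish encodes an SH2 protein that binds the activated receptor and blocks its signal. In vagotomised ozone livers it was at 4.77, 0.96, 1.05, 0.99 and 1.87 normalised counts, against 916, 109, 33.3, 19.9, 12.0 and 15.3 in vagotomised air livers. These rest on 10 reads over the 5 ozone libraries, against 1259 reads over the 6 air libraries. The groups do not overlap: the highest ozone library is under the lowest air library, and 1 air library holds most of that group's reads. In sham ozone livers it was at 7.33, 5.52, 7.88, 2.02, 2.18 and 5.90 normalised counts, against 92.8, 22.8, 82.7, 7.72 and 8.21 in sham air livers. The sham groups touch, since 1 ozone library (7.88) lies above 1 air library (7.72).

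The group means of Cish were 1.93 ± 1.63 in vagotomised ozone, 184 ± 360 in vagotomised air, 5.14 ± 2.51 in sham ozone and 42.8 ± 41.6 in sham air rats (SD, n = 5, 6, 6 and 5), and the air SDs are close to the means or above them. On the log2(count + 1) scale, which understates changes of low genes, Cish fell by 4.23 ± 0.84 with ozone in vagotomised rats (SE, limma adjusted p = 0.000823, 95% interval -5.96 to -2.50). In sham rats it fell by 2.27 ± 0.84 (adjusted p = 0.0443, interval -4.0 to -0.55). Both errors come from a spread shared over the 4 groups, with an SD of 1.53 log2 units. The SD was 2.06 among air and 0.68 among ozone libraries, so the spread of the air groups is understated. No run gave air and ozone groups separate spreads, so these intervals and p-values are approximate. The vagotomised call held in each alternative run. The sham call is marginal and was lost in 14 of the 37 settings run. It was lost without any 1 of sham air libraries 1, 2 or 3 (adjusted p = 0.124, 0.0674 and 0.129), of sham ozone libraries 1, 2, 4, 5 or 6 (0.0522 to 0.0833) or of vagotomised ozone libraries 3, 4 or 5 (0.0502 to 0.0505), with a pseudocount of 5 (0.0784) and in edgeR (0.0533). Without the 4 libraries low in 5.8S, 3 of which hold their group's highest Cish, the log2 change was -3.94 in vagotomised rats (adjusted p = 0.00042) and -2.41 in sham rats (adjusted p = 0.00524).

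Socs2 encodes another SH2 protein, which brings the receptor to ubiquitin-dependent breakdown; mice without it grow large. In vagotomised ozone livers it was at 17.2, 16.3, 17.8, 12.9 and 11.2 normalised counts, against 1123, 841, 127, 69.7, 37.1 and 31.8 in vagotomised air livers. In sham ozone livers it was at 45.2, 45.3, 39.4, 33.4, 33.8 and 18.9, against 180, 407, 1182, 73.3 and 33.9 in sham air livers. After vagotomy the groups do not overlap. In sham rats 1 air library (33.9) lies inside the ozone range.

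Socs2 averaged 15.1 ± 2.88 in vagotomised ozone and 372 ± 482 in vagotomised air rats, 36.0 ± 9.87 in sham ozone and 375 ± 474 in sham air rats (SD, n = 5, 6, 6 and 5). It fell by 3.23 ± 0.82 on the log2 scale with ozone in vagotomised rats (SE, limma adjusted p = 0.00675) and fell by 2.39 ± 0.82 in sham rats (adjusted p = 0.0317). As for Cish, both errors come from a shared spread, with an SD of 1.53 log2 units. The SD was 2.12 among air and 0.38 among ozone libraries, so these errors and p-values are approximate. The vagotomised call held in each alternative run. The sham call was lost without sham air library 2 (adjusted p = 0.0855) or 3 (-1.72, adjusted p = 0.122), without sham ozone library 6 (adjusted p = 0.0626), without the 2 air libraries highest in Cish or Socs2 (adjusted p = 0.0683, an alternative chosen after seeing the data) and with robust empirical Bayes (adjusted p = 0.0506). So 2 to 4 of the 8 genes were called in sham rats as single libraries were left out.

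Cish and Socs2 stand apart from the other 6 genes in how much rats of the same group differ. That they vary was known beforehand and is why values are given per library, so the figures here describe the spread and do not test it. The within-group SD over the 22 libraries was 1.53 log2 units for Cish and 1.53 for Socs2, against a median of 0.28 over all genes, and 0.483% and 0.491% of the genes tested had a larger one. It was 0.14 for Ghr, 0.18 for Stat5b, 0.24 for Igf1, 0.28 for Stat5a, 0.30 for Igfals and 0.33 for Jak2. The spread sits in the air libraries: for Cish 0.68 in ozone libraries and 2.06 in air libraries, for Socs2 0.38 in ozone and 2.12 in air. Cish had no more than 9 reads in any ozone library, and log2(count + 1) compresses differences at that level. How far this lowers its ozone SD was not tested. From the lowest to the highest air library, Cish differed 76.1-fold after vagotomy and 12.0-fold after sham surgery, and Socs2 35.4-fold and 34.9-fold.

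**Figure D2:**
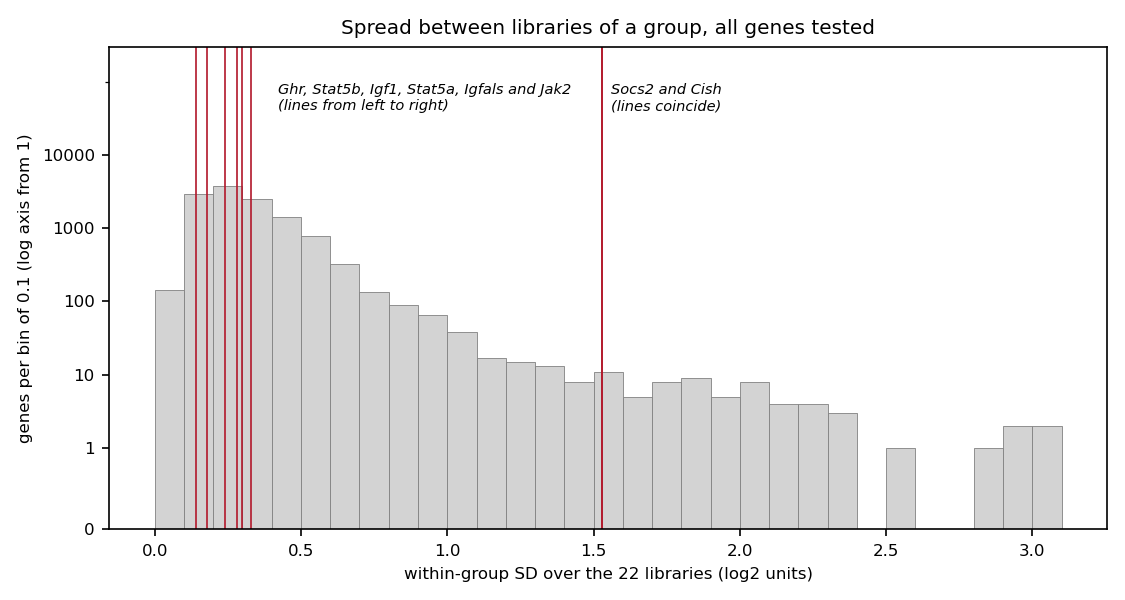
Number of genes (log axis from 1) by within-group SD of log2(count + 1) over the 22 libraries, for all 12424 genes tested, with the 8 genes as red lines. Cish and Socs2 lie at 1.53, in the thin right tail, and the other 6 genes between 0.14 and 0.33.

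Where Cish was high among air livers, Socs2 was high as well. Over the 11 air libraries the log2 values of Cish and Socs2 had a Pearson r of 0.816 (permutation p = 0.00115, adjusted over 2 relations 0.0023) and a Spearman rho of 0.791 (permutation p = 0.00559, adjusted 0.0112). Without vagotomised air libraries 1 and 2, the farthest from the median of Cish, r was 0.751 (permutation p = 0.0198, n = 9, 2-sided). Within a surgery group r was 0.924 in vagotomised air and 0.753 in sham air rats, given as descriptions with no test.

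Over the 11 ozone libraries r was 0.625 (permutation p = 0.0437, adjusted 0.0437) and rho 0.745 (permutation p = 0.0112, adjusted 0.0112). It did not hold within the surgery groups, where r was 0.152 in vagotomised ozone and 0.154 in sham ozone rats. Without sham ozone libraries 1 and 3, the farthest from the median of Cish, r was 0.422 (permutation p = 0.262, n = 9) and rho 0.633 (permutation p = 0.0759). The call for r over the 11 libraries was marginal. It was lost without any 1 of vagotomised ozone libraries 2, 3, 4 or 5 or sham ozone libraries 1, 2 or 3, with r between 0.547 and 0.621 and adjusted p between 0.0639 and 0.107. What the relation rests on was not tested.

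**Figure D3:**
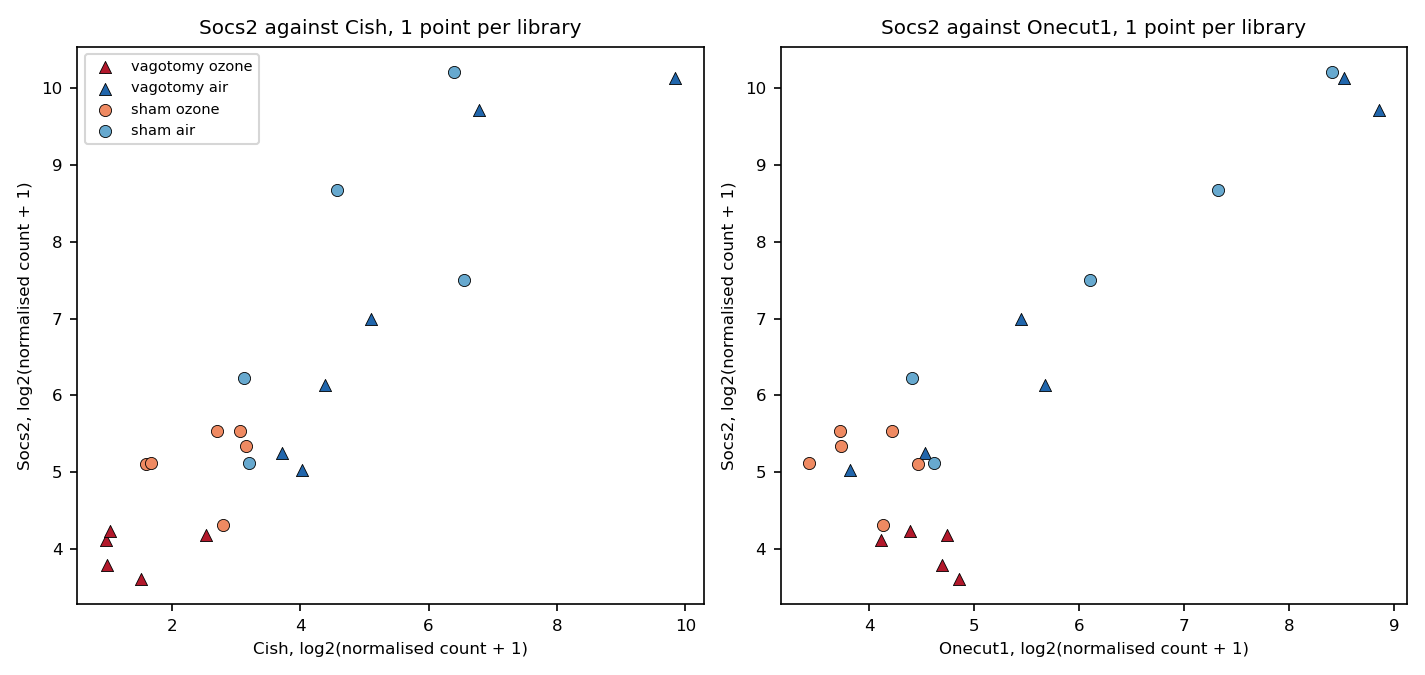
Socs2 against Cish (left) and Socs2 against Onecut1 (right), as log2(normalised count + 1), 1 point per library. The 4 libraries highest in Cish (82.7 to 916 normalised counts) are all from air rats, and the 11 ozone libraries lie at or below 7.88 for Cish and 45.3 for Socs2.

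Igf1, the hormone through which growth hormone acts on body growth, averaged 10332 ± 1708 normalised counts in vagotomised ozone and 12614 ± 1611 in vagotomised air rats, 11191 ± 1681 in sham ozone and 12704 ± 2561 in sham air rats (SD, n = 5, 6, 6 and 5). The groups overlap after both surgeries. The log2 change with ozone was -0.30 ± 0.14 (SE, limma adjusted p = 0.151, 95% interval -0.59 to 0.00) in vagotomised rats and -0.17 ± 0.14 (adjusted p = 0.403, interval -0.46 to 0.13) in sham rats. Averaged over both surgeries it was -0.23 ± 0.10 (adjusted p = 0.0716), and -0.30 (adjusted p = 0.00794) without sham air library 1, -0.27 (adjusted p = 0.037) without sham ozone library 2 and -0.26 (adjusted p = 0.0488) without vagotomised ozone library 2. The averaged change also passed with equal column totals (-0.29, adjusted p = 0.0171), with equal upper quartiles (-0.31, adjusted p = 0.0131), in edgeR with TMM (adjusted p = 0.0433) and in DESeq2 (adjusted p = 0.0481).

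Igfals encodes the acid-labile subunit, which holds IGF-I and its binding protein in a long-lived plasma complex. It was at 3754, 2675, 2581, 2105 and 2003 normalised counts in vagotomised ozone livers, against a lowest of 3264, a median of 4110 and a highest of 5800 in vagotomised air livers. In sham ozone livers the lowest was 2699, the median 2930 and the highest 4449, against 4267, 3702, 4593, 4071 and 3547 in sham air livers. After vagotomy 4 of 5 ozone libraries lie below the whole air range, and in sham rats 4 of 6 do. Igfals fell by 0.74 ± 0.17 on the log2 scale in vagotomised rats (SE, limma adjusted p = 0.00281), a call that held in each alternative run. In sham rats the log2 change was -0.31 ± 0.17 (adjusted p = 0.177), and -0.38 without the 4 libraries low in 5.8S (adjusted p = 0.0234).

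**Figure D4:**
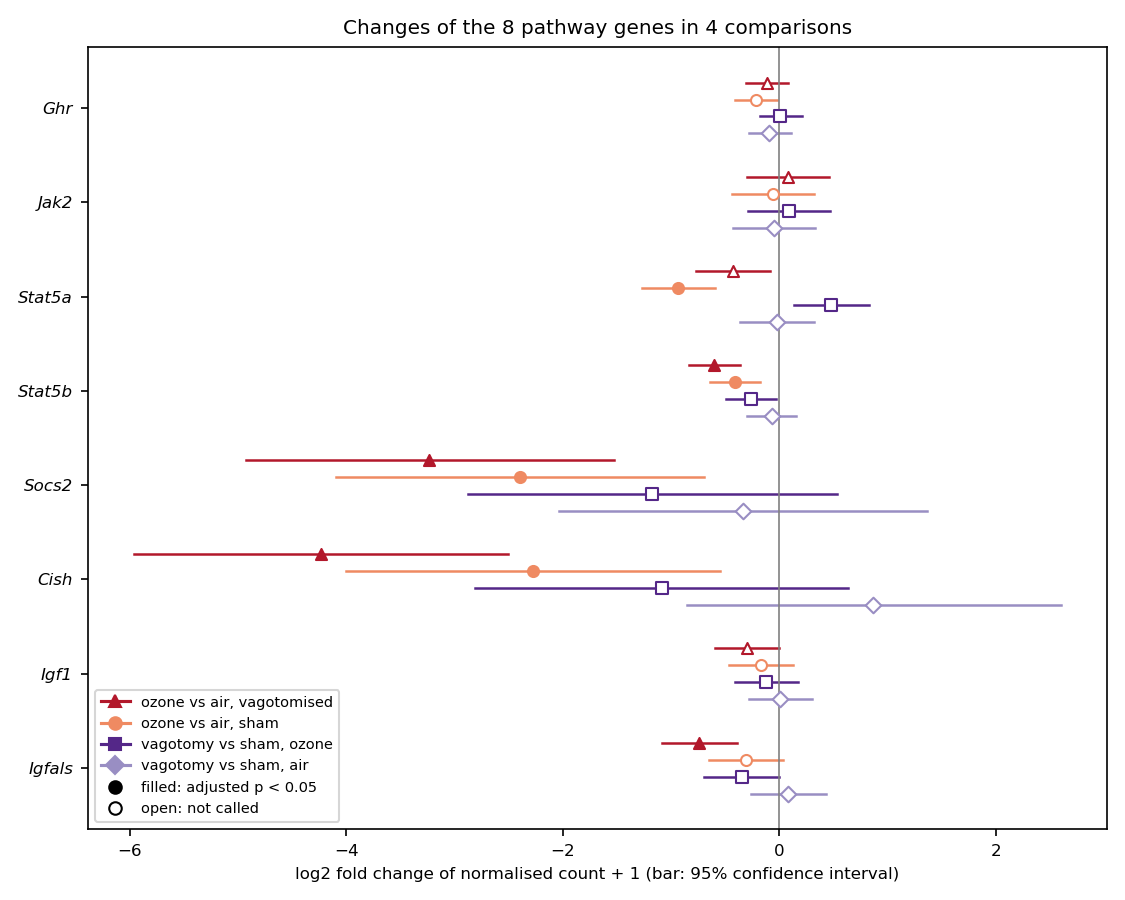
Log2 change of the 8 genes in 4 comparisons, with 95% intervals from limma; filled points passed an adjusted p of 0.05. Ozone points lie below 0 for all 8 genes except Jak2 in vagotomised rats (0.08), and no point of the vagotomy comparisons is filled. The intervals of Cish and Socs2 use a spread shared over the groups, smaller than that among air libraries.

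No change of the 8 genes with vagotomy passed limma's test. Between vagotomised air and sham air rats 0 of 8 passed (0% of all genes called, 387 at an unadjusted p under 0.05, 0 of them among the 8), and edgeR and DESeq2 called 0 of the 8. For 0 of the 8 genes were these groups without overlap, as they were for 0.346% of all genes. The log2 change was 0.87 ± 0.84 for Cish (SE, limma adjusted p = 1, 95% interval -0.85 to 2.60) and -0.33 ± 0.82 for Socs2 (adjusted p = 1, interval -2.03 to 1.37), so changes of several-fold in either direction lie inside the intervals. Those errors come from a spread shared over the 4 groups, with an SD of 1.53 log2 units for either gene. Among air libraries alone the SD was larger, 2.06 for Cish and 2.12 for Socs2, so their intervals here are too narrow. For the other 6 genes the interval stayed within -0.43 to 0.43. Averaged over both exposures, vagotomy gave 0 calls among the 8 in limma (0.113% of all genes), edgeR and DESeq2, and 1 of the 8 had an unadjusted p under 0.05.

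Between vagotomised ozone and sham ozone rats 0 of 8 passed, where 1.34% of all genes were called. Socs2 was the 1 member whose groups do not overlap there, with each of the 5 vagotomised ozone livers (11.2 to 17.8) below each of the 6 sham ozone livers (18.9 to 45.3). Of all genes, 2.12% were without overlap, 0.942% with vagotomised rats lower. Its log2 change was -1.17 ± 0.82 (SE, limma adjusted p = 0.552). That error comes from a spread shared over the 4 groups, and with only the ozone groups in the fit the adjusted p was 0.102. Stat5a was at 0.48 ± 0.17 (adjusted p = 0.151) and Stat5b at -0.26 ± 0.11 (adjusted p = 0.276), the 2 members with an unadjusted p under 0.05, and edgeR and DESeq2 called 0 of the 8.

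The ozone change was not shown to differ between surgeries for any of the 8 genes. The vagotomised minus sham difference was -1.96 ± 1.18 log2 units for Cish (SE, limma adjusted p = 0.652, 95% interval -4.40 to 0.49), -0.84 ± 1.16 for Socs2 (adjusted p = 0.883), 0.50 ± 0.24 for Stat5a (adjusted p = 0.534) and -0.43 ± 0.24 for Igfals (adjusted p = 0.608). Over all genes 0% passed in limma, 1147 had an unadjusted p under 0.05, 1 of them among the 8 genes (Stat5a), and DESeq2 called 20 genes, 0 of the 8. Igfals fell past the threshold in vagotomised rats alone and Stat5a in sham rats alone, and neither difference passed.

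Genes whose within-group variation was most like that of Cish or Socs2 were ranked over the 22 libraries among 9647 genes with a mean of at least 50, by Pearson r of log2 values centred on group means. These are descriptions from shared libraries, without a p. For Cish they were Vgll4 (0.83), Socs2 (0.813), Slc25a30 (0.811), Ajuba (0.806), Uspl1 (0.803) and Atf4 (0.799). For Socs2 they were Onecut1 (0.934), Rcan1 (0.895), Uspl1 (0.863), Mapkapk3 (0.861), Nrep (0.846) and Arhgef3 (0.843). For all of these pairs r was lower among the 11 ozone libraries than among the 11 air libraries, by amounts that differed. Since Cish and Socs2 spread mostly in air, the ranking favours genes with a high r there. A lower r in ozone thus follows in large part from how the genes were chosen. Cish also had no more than 9 reads in any ozone library, which limits its r there. With Socs2 it ran over the 6 genes from -0.433 (Arhgef3) to 0.502 (Nrep) in ozone and from 0.945 (Nrep) to 0.975 (Onecut1) in air. With Cish it ran from -0.372 (Slc25a30) to 0.737 (Uspl1) in ozone and from 0.823 (Uspl1) to 0.93 (Slc25a30) in air, and Ajuba was at 0.73 in ozone and 0.893 in air.

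Onecut1 encodes the liver transcription factor HNF6, known as a growth hormone target in rat liver. It was at 25.7, 16.3, 19.9, 24.8 and 28 normalised counts in vagotomised ozone livers, against 367, 460, 42.8, 49.8, 22.1 and 13.1 in vagotomised air livers. In sham ozone livers it was at 12.2, 17.7, 12.3, 21.2, 9.80 and 16.5, against 67.8, 159, 340, 20.3 and 23.6 in sham air livers. Vagotomised air libraries 1 and 2 and sham air library 3 are the highest of their groups for Onecut1 and for Socs2 alike. Onecut1 fell by 2.22 ± 0.75 on the log2 scale with ozone in sham rats (SE, limma adjusted p = 0.029), a call lost without sham air library 2 (0.0824) or 3 (0.109) or sham ozone library 5 (0.0537) or the 2 air libraries highest in Cish or Socs2 (0.0725). In vagotomised rats the change was -1.58 ± 0.75 (adjusted p = 0.144). Rcan1, a feedback inhibitor of calcineurin, fell by 1.11 ± 0.29 in vagotomised rats (adjusted p = 0.00764) and fell by 1.43 ± 0.29 in sham rats (adjusted p = 0.000679), with no overlap in either.

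Among the other genes of the pathway, those of the JAK and STAT families that passed in either surgery group fell. Of 7 tested, 3 fell and 0 rose with ozone in vagotomised rats, where 21.1% of all genes were called (9.63% as fallen). In sham rats, where 28.4% were called (13.8% as fallen), 3 fell and 0 rose. Median log2 changes were -0.21 in vagotomised and -0.19 in sham rats, against -0.01 and 0.01 over all genes. Averaged over both surgeries 4 fell and 1 rose, where 39.1% of all genes were called. The risen gene was Stat2, a call lost with equal column totals (limma adjusted p = 0.0506) or upper quartiles (0.0681). Tyk2, a kinase of interferon and interleukin receptors, fell by 0.49 ± 0.11 in vagotomised (SE, limma adjusted p = 0.00187) and fell by 0.78 ± 0.11 in sham rats (adjusted p = 9.63e-06). Jak3, a kinase mainly of blood cells, fell by 0.69 ± 0.24 in vagotomised (adjusted p = 0.0401) and fell by 0.85 ± 0.24 in sham rats (adjusted p = 0.00914); the median lymphocyte marker sum was 10.9 in vagotomised ozone against 26.9 in vagotomised air and 17.5 in sham ozone against 24.2 in sham air libraries, and their part in that result was not tested. The vagotomised Jak3 call was lost without any 1 of vagotomised ozone libraries 2 to 5 or vagotomised air libraries 1, 2 or 5, with adjusted p between 0.0542 and 0.136, without the 2 air libraries highest in Cish or Socs2 (0.104), with the replicate block (0.0604) and with only the groups compared (0.0607).

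Other genes that restrain or end the receptor's signal moved in both directions. For the counts that follow, 21.1% of all genes were called in vagotomised rats (9.63% as fallen) and 28.4% in sham rats (13.8% as fallen). Of 5 other SOCS genes tested, 0 rose and 1 fell in vagotomised and 1 rose and 0 fell in sham rats: Socs5 fell by 0.44 ± 0.11 in vagotomised rats (SE, limma adjusted p = 0.00539), and Socs6 rose by 0.58 ± 0.13 in sham rats (adjusted p = 0.0014). Socs3, the family's cytokine-induced member, was at 0.21 ± 0.42 in vagotomised (adjusted p = 0.778) and 0.42 ± 0.42 in sham rats (adjusted p = 0.483). Of 10 phosphatases and PIAS genes, 2 rose and 3 fell in vagotomised and 2 rose and 4 fell in sham rats. Ptpn1, whose phosphatase PTP1B acts on JAK2, rose by 0.49 ± 0.14 in vagotomised (adjusted p = 0.0186) and 0.76 ± 0.14 in sham rats (adjusted p = 0.000374), the vagotomised call being lost without vagotomised ozone library 2 (0.0691) or 3 (0.079) or without the 4 libraries low in 5.8S (0.0856). Of 6 receptor turnover genes, 0 rose and 1 fell in vagotomised and 0 rose and 2 fell in sham rats. Adam17, the sheddase that releases the receptor's outer part, fell by 0.43 ± 0.09 in vagotomised (adjusted p = 0.00154) and fell by 0.84 ± 0.09 in sham rats (adjusted p = 6.21e-07), with no overlap after either surgery.

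Sirpa, a membrane glycoprotein that JAK2 phosphorylates and that is abundant on macrophages, was at 253, 246, 264, 261 and 360 normalised counts in vagotomised ozone livers, against a lowest of 323, a median of 345 and a highest of 379 in vagotomised air livers. In sham ozone livers the lowest was 151, the median 182 and the highest 215, against 386, 346, 384, 342 and 479 in sham air livers. Each vagotomised ozone liver is above each sham ozone liver. Sirpa fell by 1.07 ± 0.11 on the log2 scale in sham rats (SE, limma adjusted p = 4.5e-07) and was higher in vagotomised ozone than in sham ozone rats by 0.58 ± 0.11 (adjusted p = 0.0163), a call lost without vagotomised ozone library 5 (0.068), sham ozone library 1 (0.0533) or 2 (0.0523) and with only the groups compared (0.105). In vagotomised rats its ozone change was -0.34 ± 0.11 (adjusted p = 0.0332), a call lost without any 1 of vagotomised ozone libraries 1 to 4 or vagotomised air libraries 1 or 3 (0.0662 to 0.0924), without the 4 libraries low in 5.8S (-0.31, 0.0902), without the 2 air libraries highest in Cish or Socs2 (0.0808) and with equal column totals (0.0596). The difference of its ozone changes was 0.72 ± 0.16 (adjusted p = 0.25). Macrophage marker sums were 3477 to 7251 in vagotomised ozone, 3515 to 5887 in vagotomised air, 3601 to 5306 in sham ozone and 3746 to 4935 in sham air libraries, and their part in the Sirpa values was not tested.

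Adaptors that join the receptor to other cascades were mixed, with 1 of 10 tested risen and 2 fallen in vagotomised and 3 risen and 3 fallen in sham rats. Over all genes 21.1% were called in vagotomised and 28.4% in sham rats, which holds for each count of this paragraph. The kinase gene Lyn fell by 0.63 ± 0.10 in vagotomised (SE, limma adjusted p = 5.64e-05) and fell by 0.65 ± 0.10 in sham rats (adjusted p = 2.35e-05), and the insulin receptor substrate gene Irs2 rose by 1.19 ± 0.30 in sham rats (adjusted p = 0.00497) and was at 0.07 ± 0.30 in vagotomised rats (adjusted p = 0.906). Of 5 endocrine factors that oppose growth hormone action or respond to fasting, 0 rose or fell in vagotomised and 1 rose in sham rats. This was Foxo1, the transcription factor held back by insulin, which rose by 1.49 ± 0.30 in sham rats (adjusted p = 0.000641) and was at 0.65 ± 0.30 in vagotomised rats (adjusted p = 0.13). The differences between surgeries did not pass for Irs2 (-1.12 ± 0.43, adjusted p = 0.437) or Foxo1 (-0.84 ± 0.42, adjusted p = 0.559). Of 9 genes of IGF receptors and binding proteins, 0 passed in vagotomised and 1 rose in sham rats, Igfbp2, by 1.04 ± 0.33 (adjusted p = 0.021), a call lost without sham air library 3 (0.0713) or 5 (0.0656) or the 2 air libraries highest in Cish or Socs2 (0.0673).

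**Figure D5:**
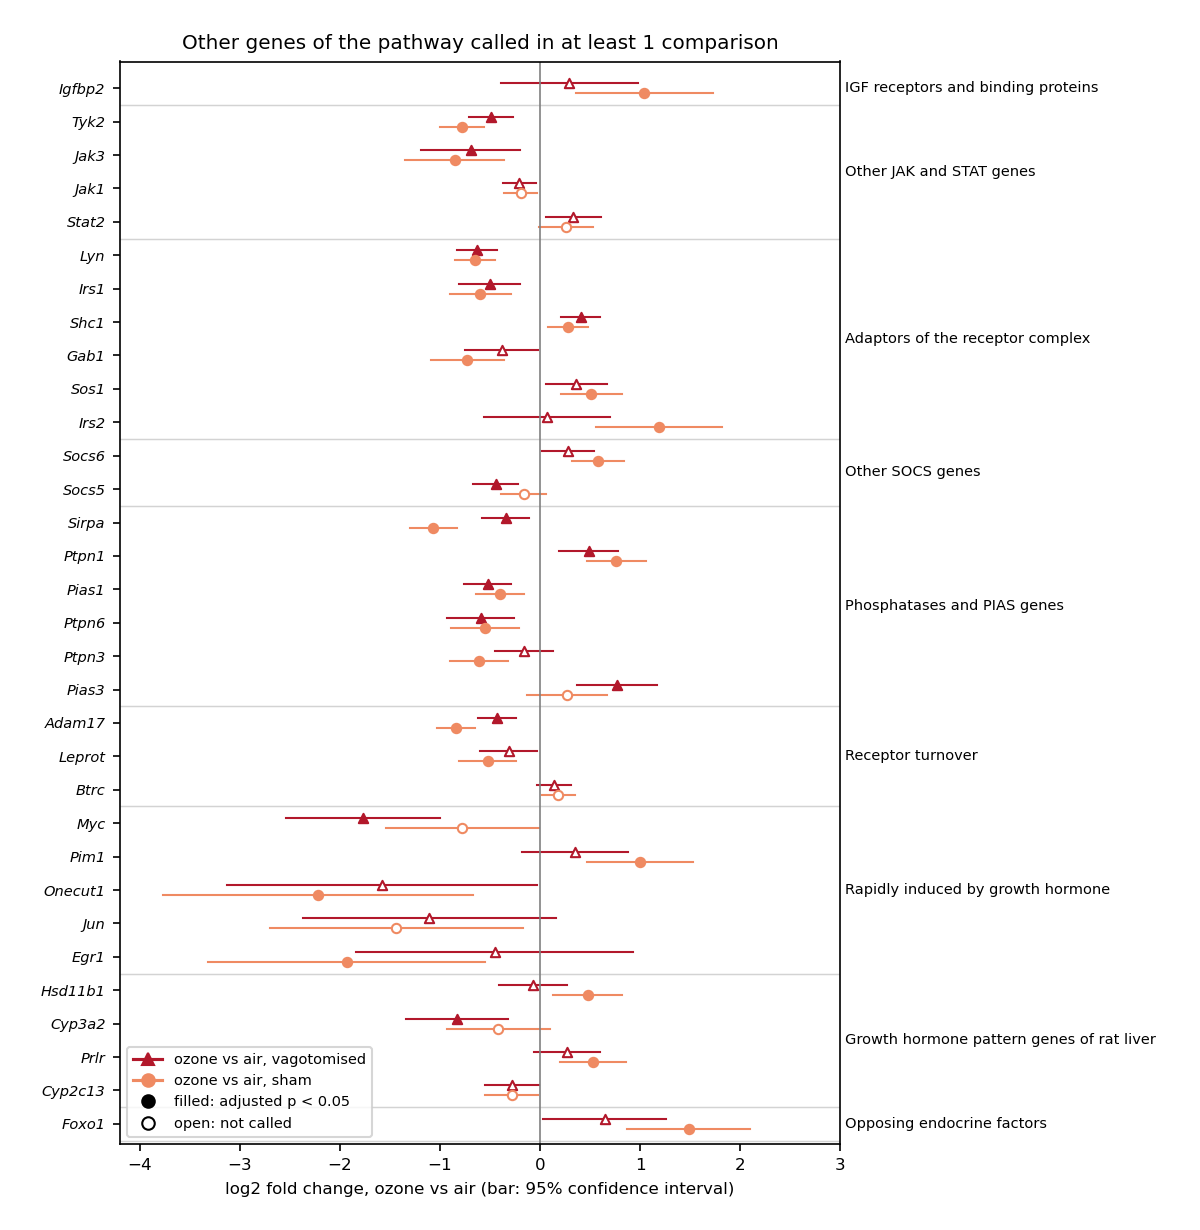
Log2 change with ozone in vagotomised and in sham rats, with 95% intervals, for genes of the other pathway lists chosen by the naming rule, 1 of them left out; filled points passed an adjusted p of 0.05. Foxo1 (1.49) and Irs2 (1.19) lie farthest right and Onecut1 (-2.22) farthest left, each in sham rats.

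Among 9 tested genes that respond to growth hormone within minutes to hours, 0 rose and 1 fell in vagotomised rats, where 21.1% of all genes were called. In sham rats, where 28.4% were called, 1 rose and 2 fell. The 2 that fell were Onecut1, given above, and Egr1 (-1.93 ± 0.67, SE, limma adjusted p = 0.0332). The Egr1 call was lost without any 1 of sham ozone libraries 3 or 4 or sham air libraries 2, 4 or 5 (0.0735 to 0.0865). It was also lost without the 4 libraries low in 5.8S (0.0779), with only the groups compared (0.0722) and in other settings. Median log2 changes were -0.38 in vagotomised and -0.78 in sham rats, against -0.01 and 0.01 over all genes. These medians mix directions of response, since the list holds Bcl6, a gene that growth hormone represses. Bcl6 was at 0.35 in vagotomised and 0.84 in sham rats and passed in neither. Myc, a growth-promoting transcription factor, fell by 1.77 ± 0.37 in vagotomised rats (SE, limma adjusted p = 0.00142) and was at -0.78 ± 0.37 in sham rats (adjusted p = 0.125). The kinase gene Pim1 rose by 1.00 ± 0.26 in sham rats (adjusted p = 0.00509). Of 10 tested genes that follow the pattern of growth hormone release in rat liver, 0 rose and 1 fell in vagotomised and 2 rose and 0 fell in sham rats. This list too mixes directions of response, so its counts give no direction for the pattern. The prolactin receptor gene Prlr rose by 0.53 ± 0.16 in sham rats (adjusted p = 0.0146), a call lost without sham air library 4 (0.0514) and with equal column totals (0.0589). Hsd11b1, which encodes an enzyme that regenerates active glucocorticoid, rose by 0.48 ± 0.17 in sham rats (adjusted p = 0.0335), and was lower in vagotomised ozone than in sham ozone rats with a log2 change of -0.68 ± 0.17 (adjusted p = 0.0398). Without the 4 libraries low in 5.8S both Hsd11b1 calls were lost (0.0502 and 0.0563), as was the sham call without any 1 of sham ozone libraries 1 to 4 or sham air libraries 2 to 5 (0.0542 to 0.0878) and with equal column totals (0.0674) or upper quartiles (0.0783). The vagotomy call was lost without any 1 of vagotomised ozone libraries 2 to 5, sham ozone libraries 1 to 4, vagotomised air libraries 3 or 4 or sham air libraries 3 or 4 (0.0501 to 0.139) and with only the groups compared (0.164). Cyp3a2, a male-predominant cytochrome P450, fell by 0.83 ± 0.25 in vagotomised rats (adjusted p = 0.0185), a call lost without vagotomised ozone library 5 (0.0631) and with only the groups compared (0.0718). Cyp2c11, the male-specific steroid hydroxylase that depends on growth hormone pulses, was at -0.21 ± 0.18 (adjusted p = 0.463) in vagotomised and -0.34 ± 0.18 (adjusted p = 0.163) in sham rats.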

How the data were processed

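Liver RNA of 22 rats in 4 groups was sequenced, and groups were taken from the sample titles. What the authors deposited is a signal, namely a read count for each gene in each library after division by that library's size factor. Tools named in the submitters' processing notes are STAR, Partek, DESeq and DESeq2; the build named is rn6 and versions are not given. Every deposited value was a whole multiple of its library's step within a tolerance of 0.001 reads, so whole reads were recovered. None of the 22 columns was set aside.

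The test was limma 3.58.1 in R 4.3.3 (trend, 2-sided) on log2(normalised count + 1), with 1 model of the 4 group means, over the 12424 of 14971 genes with a mean of at least 10, with Benjamini-Hochberg adjustment and a threshold of 0.05. Recovered reads were tested with edgeR 4.0.16 and DESeq2 1.42.0. Other alternatives were pseudocounts, filters, scalings, fits of the compared groups only, a replicate block, and leaving out single libraries or the 4 low in 5.8S. Correlations used permutation tests with 100000 resamples in scipy 1.17.1 (Python 3.11.15), and figures matplotlib 3.10.9. Replicate numbers showed no sign of pairing rats: same-numbered libraries of different groups had a median correlation of 0.0255, against 0.0446 for other pairs. Same-numbered pairs ranged from -0.495 to 0.608, and such medians cannot exclude a pairing. No libraries of the same group were copies of each other (50 pairs), and pairs across groups were not examined for copies. On simulated data for ozone in sham rats (12359 genes), limma recovered 44.8% of 67 genes changed 1.5-fold, 94% of 67 changed 2-fold and 97% of 66 changed 4-fold. Changes were planted only in genes with a mean of at least 50, and each gene had the same dispersion in all groups. These shares are over genes of all spreads and do not give the power for Cish or Socs2.

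The 8 genes, the 9 pathway lists and the 8 marker lists were chosen with earlier results of these data known. Named were the 8 genes, up to 6 genes per pathway list with the smallest p among those called in any of 7 comparisons, and the 6 genes most alike Cish or Socs2. Socs3, Bcl6 and Cyp2c11 fall outside that rule and were named after their values were seen. Promoters came from a RefSeq table of GRCr8, and no coordinates of rn6 are given. For 1 gene of the pathway lists, values are not reported here.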

Additional observations from a re-analysis of the deposited data

Results flagged for a closer look

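In 3 of the 32 sets of values (8 genes in 4 groups), 1 library stood far from the others of its group by Dixon's criterion at the 95% level on the normalised counts, where chance gives about 1 in 20, or 1.6 of 32. Cish was at 916 normalised counts in vagotomised air library 1, and the next library was at 109, a gap of 0.893 of the group's range. Cish was at 4.77 in vagotomised ozone library 1, against 1.87 in the next, a gap of 0.762 of the range that rests on 5 reads and 2 reads. Ghr was at 9600 in sham air library 1, the lowest of its group, against 11273 in the next, a gap of 0.729 of the range. On the log2(count + 1) scale of the tests, the Ghr library still stood apart (0.75 of the range, limit 0.71), and the Cish libraries did not (0.499 after vagotomy in air, limit 0.625, and 0.648 after vagotomy in ozone, limit 0.71). Both Cish libraries are among the 4 low in 5.8S (38.1 and 180 normalised counts of that gene in vagotomised ozone library 1 and vagotomised air library 1). Without those 4 the log2 change of Cish with ozone was -3.94 in vagotomised rats (limma adjusted p = 0.00042).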

How the results depend on the processing

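For the other genes named, over 88 results and 3216 settings, 136 lost the call and 0 gained it, and 66 results kept their side in every setting. For the 8 genes, over 56 results and 2023 settings, 1978 kept their side of the threshold, 19 lost the call and 26 gained it. Most of these 56 results were not called in the main fit. The sign differed in 59 of the 1978, over 14 results of which 0 were called (Jak2 with ozone averaged over surgery in 12, -0.07 to 0.08, and Cish with vagotomy averaged over exposure in 9, -0.53 to 0.39). Beside those named in the text, Ghr averaged over surgery (-0.16, limma adjusted p = 0.0569) passed with other scalings (-0.22 and -0.24), in edgeR with TMM (adjusted p = 0.035), in DESeq2 (0.034) and without any 1 of 5 libraries; edgeR with the submitters' size factors did not call it. There, edgeR with TMM and DESeq2 each called 7 of the 8 genes and limma called 5. With a replicate block, the log2 change of Cish with ozone was -4.36 in vagotomised and -2.14 in sham rats, and 4 of the 8 genes were called in each surgery group; the block changed no call of the 8. The numbers of members called ranged over 2 to 4 in sham, 4 to 5 in vagotomised and 5 to 7 in averaged ozone comparisons as single libraries were left out; 2 arose without sham ozone library 6 or sham air library 2 or 3.

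Counts over all genes depended more on the setting. For vagotomised against sham rats in ozone, 166 genes were called, 2 with only the groups compared, 366.0 in DESeq2, 269 without the 4 libraries low in 5.8S and 15 to 217 as single libraries were left out (22, 60, 75 and 15 without vagotomised ozone library 2, 3, 4 or 5, 83 without vagotomised air library 4, 20 and 19 without sham ozone library 1 or 2). The difference of the ozone changes gave 0 genes, 20 in DESeq2 and 0 to 1 as single libraries were left out. Vagotomy averaged over exposure gave 14, 37 without a filter, 3 at a mean of at least 50, 4 with the replicate block, 36 in edgeR, 114 in DESeq2, 23 without the libraries low in 5.8S and 10 to 34 as single libraries were left out, the most without vagotomised ozone library 4. The Cish to Socs2 correlation in ozone rats was 0.581 (adjusted p = 0.0635) with equal column totals, 0.653 (adjusted p = 0.0707) without the libraries low in 5.8S and 0.547 to 0.71 as single libraries were left out. The cause of these shifts was not tested. Cish in the fit of the ozone groups alone had no value, because its mean there was under 10. Its 10 reads in vagotomised ozone livers limit how well its level there is known.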
